A study of Mus musculus with 8 samples.

Results

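The transcripts described here are those of 10 mouse genes that handle iron or bind and import zinc. They are the ferritin subunits Fth1 and Ftl1, the iron exporter Slc40a1 and its ferroxidase Heph, the importers Slc11a2 and Tfrc, the heme-degrading enzyme Hmox1, the metallothioneins Mt1 and Mt2 and the zinc importer Slc39a4. They were chosen by symbol, with earlier results of these data known, and each has a single row among 52143 genes. All 10 belonged to the 13164 genes that were tested, those with a TPM of 1 or more in 4 or more samples. TPM is a transcript's share of a library after correction for its length, and it sums to 1000000 in each sample.

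Enterocytes take up ferrous iron through Slc11a2 at the apical membrane and release it to the blood through Slc40a1, where Heph oxidises it for loading onto transferrin. Iron that is not exported is held in ferritin, a shell of Fth1 and Ftl1 chains, and dividing cells import transferrin-bound iron through Tfrc. Iron regulatory proteins bind the mRNAs of Fth1, Ftl1 and Slc40a1 ahead of the coding sequence and repress their translation, and bind those of Tfrc and one form of Slc11a2 behind it and slow their decay, so ferritin protein can change without its mRNA. Metallothioneins are small cysteine-rich proteins that hold zinc and copper, and zinc induces them through the transcription factor Mtf1. Most dietary iron is absorbed in the duodenum, and the tissue measured here was the distal colon.

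The study asked what human Siglec-XII does in the mouse intestinal epithelium. Control mice (Villin1-Cre-ERT) carried only the tamoxifen-activated Cre, which the Villin1 promoter drives in villi and crypts of the intestine. Siglec-XII mice (SIGLEC12-Villin1-Cre-ERT) also carried human SIGLEC12 behind a stop cassette that Cre removes. Mice of both groups were 8 weeks old and received 100 µL of tamoxifen at 10 mg/ml on 5 consecutive days, and the colon was taken 7 days after the last dose, on day 12 from the first. The methods state that the mice were female. The labels list 4 samples per group, whereas the design text speaks of 3 mice per condition and the methods of 3 technical libraries per sample, so p-values measure the spread between these samples, which may in part be technical.

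The transgene gives no check on the labels, since no row was named SIGLEC12, EGFP or Cre. Of 10 markers of colon epithelium 0 passed at an unadjusted P of 0.05, and of 6 small intestinal markers Lct, Sis, Apoa4 and Defa24 were at most 0.33 log2(TPM + 1) in any sample, whereas Rbp2 stood at 6.65 to 7.39 and Fabp6 at 4.67 to 5.09. Samples differed in other tissue: 14 markers of stratified squamous epithelium, the lining of the anal canal and skin, made up 0.0938% to 2.66% of TPM, with controls 1 and 4 highest. The summed TPM of 7 smooth muscle markers was 629 to 1013 in the controls against 306 to 656, and all 7 had a difference below 0. At an unadjusted P of 0.05, where 7.67% of all genes tested were lower, 4 of these 7 were lower, as were 2 of 4 macrophage markers tested, 2 of 3 neutrophil markers, 1 of 4 plasma cell markers (Igha, -2.19 log2 units) and the 1 endothelial marker tested (Pecam1, -0.59), and 0 of all these passed adjustment. The 8 macrophage markers summed to 11.1 to 28 TPM against 7.3 to 12.2, and all 8 markers of cycling cells had differences below 0 with 0 that passed. Beside these and the smooth muscle markers, only 21.9% of all genes tested had a difference above 0. The median gene tested lay 0.21 log2 units lower in Siglec-XII samples, of which samples 3 and 4 lay 0.23 and 0.37 below the mean of all samples. In whole tissue, fewer cells of a type and less RNA per cell cannot be told apart.

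These 10 genes together made up between 0.635% and 0.821% of all TPM, depending on the sample. Ferritin accounted for most of it: Fth1 and Ftl1 held 0.479% to 0.582%, and Mt1 and Mt2 held 0.116% to 0.281%. On the per-length TPM scale in controls, Fth1 stood at 3518 ± 249 TPM (SD, n = 4), Ftl1 at 1821 ± 234, Mt1 at 1220 ± 328 and Mt2 at 842 ± 345, which placed Fth1 27th and Ftl1 85th among the genes tested. The exporter Slc40a1 followed at 138 ± 23.6 TPM, ahead of Tfrc at 57.7 ± 5.0, Slc39a4 at 51.5 ± 14.5, Heph at 29.8 ± 5.98 and the importer Slc11a2 at 29.5 ± 5.95. Hmox1 was the lowest, at 7.92 ± 5.17 TPM.

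In this order of levels, 4 pairs of neighbours overlapped between control samples. Heph and Slc11a2 could not be ordered, since Heph was the higher in 4 of the 8 samples, and Tfrc exceeded Slc39a4 in 5 of 8. Mt1 overlapped Mt2 across samples, yet within a sample Mt1 was the higher in 8 of 8, as was Slc39a4 over Heph. The order was the same after quantile normalization, and leaving out control 1, 2 or 3 exchanged at most 2 genes.

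**Figure D1:**
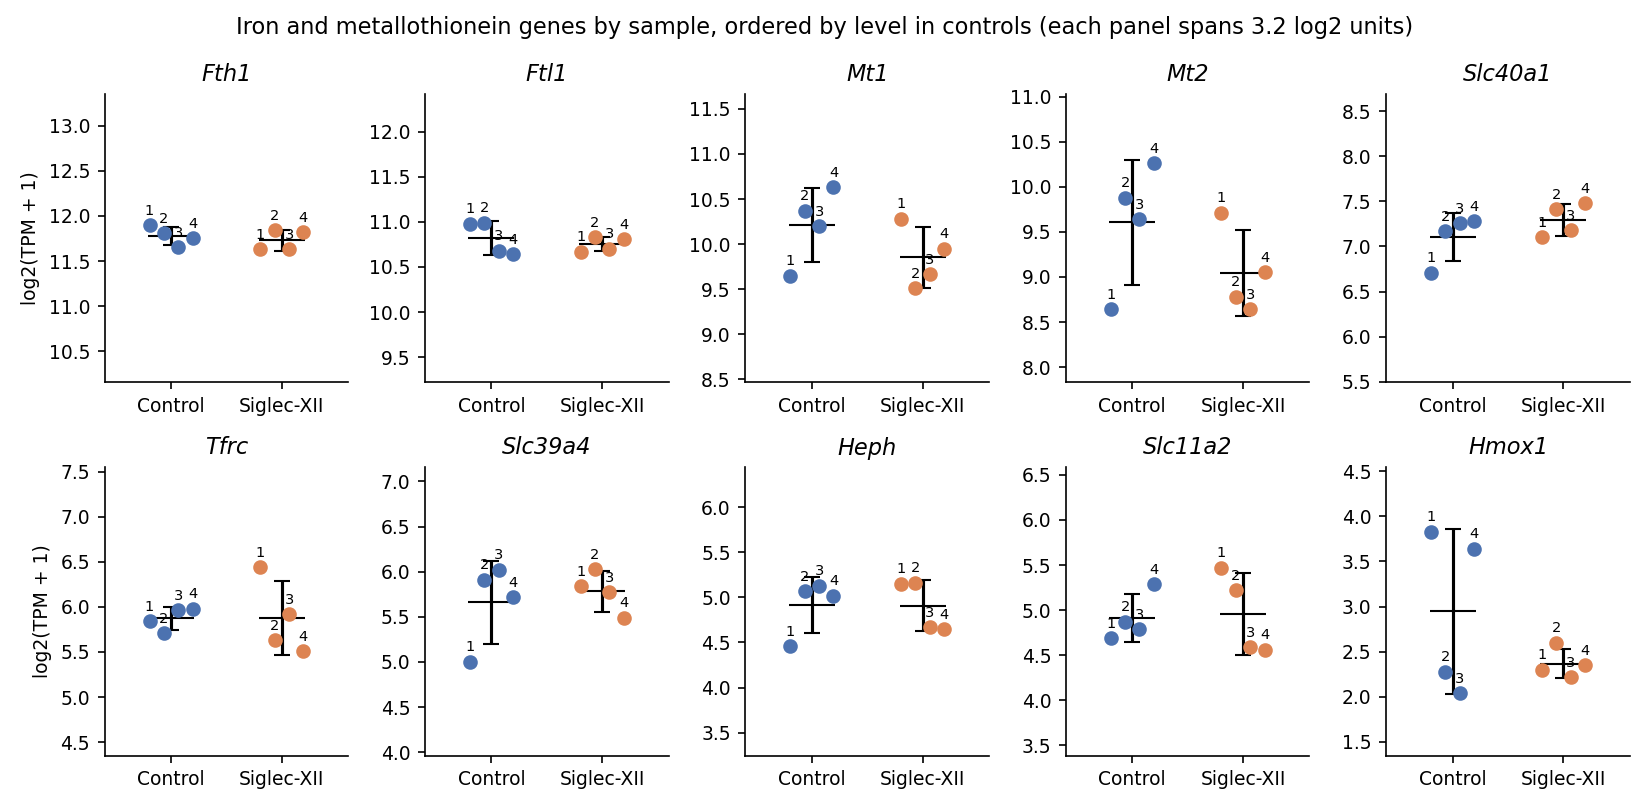
Level of each of the 10 genes, log2(TPM + 1), in the 4 Control (blue) and 4 Siglec-XII (orange) samples. Points are samples with their number, bars are the mean ± SD, and panels run from the highest to the lowest control mean. Ferritin spans 0.27 (Fth1) and 0.35 (Ftl1) log2 units over all samples, Hmox1 spans 1.79, and the groups overlap in every panel.

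No gene of the 10 passed a test of the difference between the groups. With limma on log2(TPM + 1) and Benjamini-Hochberg adjustment over all genes tested, 0 of the 10 passed at an adjusted p of 0.05, and the smallest adjusted p was 0.522, that of Mt2. Of all genes tested, 5 of 13164 genes passed (0.038%). At an unadjusted P of 0.05, limma called 0 of the 10, beside 8.87% of all genes tested (1.19% higher and 7.67% lower in Siglec-XII samples). The groups did not overlap for 0 of the 10 and for 5.11% of all genes. The median log2 difference, Siglec-XII minus Control, was -0.03 for the 10 genes and -0.15 for all genes tested.

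On the deposited scale 4 of the 10 differences were above 0 and 6 below. After each sample was centred on its median gene 7 were above 0, since centring raises every difference by 0.21 or 0.22, and after quantile normalization 5 were. Fth1, Ftl1 and Heph changed sign with centring, and Heph also with quantile normalization. A direction for these 3 genes therefore cannot be given. None is established for the others either, since all 10 intervals included 0. Under other alternatives Tfrc, Slc11a2, Slc39a4 and Hmox1 also changed sign.

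**Figure D2:**
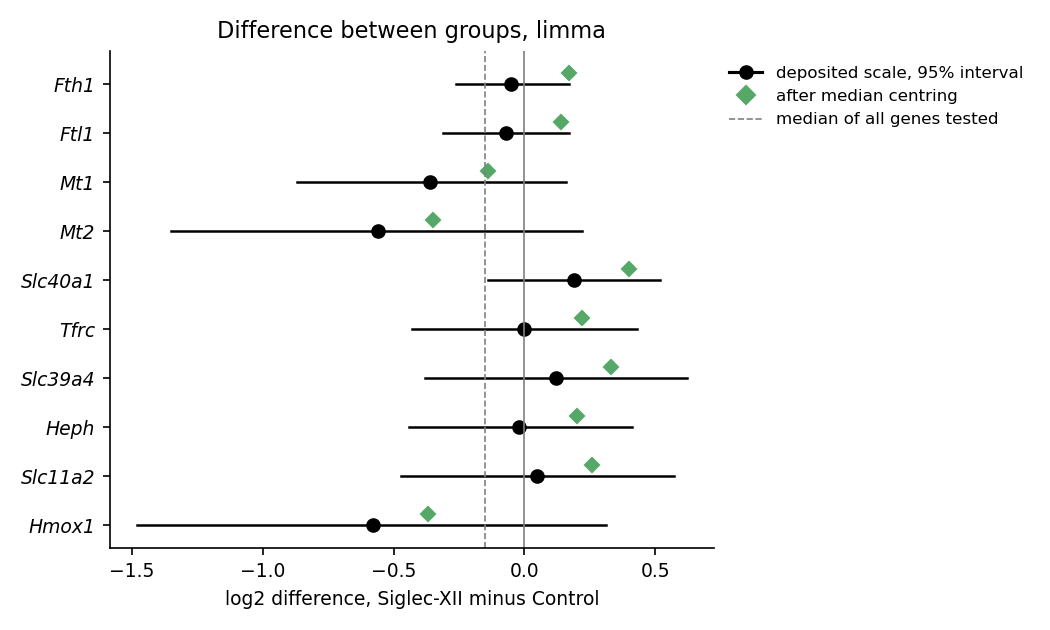
Log2 difference in level, Siglec-XII minus Control, for each gene, with the 95% interval from limma (black). Green diamonds give the value after centring each sample on its median gene, and the dashed line is the median of all genes tested, -0.15. All 10 intervals include 0, and their widths run from 0.43 to 1.79 log2 units.

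The metallothioneins were the abundant genes of the set that varied most. In controls 1 to 4 Mt1 stood at 9.65, 10.37, 10.20 and 10.63 log2(TPM + 1), and in Siglec-XII samples 1 to 4 at 10.28, 9.51, 9.67 and 9.95. Mt2 stood at 8.64, 9.88, 9.64 and 10.26 in controls and at 9.71, 8.78, 8.64 and 9.05 in Siglec-XII samples. For both genes control 4 was the highest sample, control 1 lay with the low Siglec-XII samples and Siglec-XII sample 1 lay with the high controls, so the groups overlapped. The log2 difference was -0.36 for Mt1 (SE 0.229, 95% interval -0.87 to 0.16, limma adjusted p = 0.526) and -0.56 for Mt2 (SE 0.348, 95% interval -1.35 to 0.22, limma adjusted p = 0.522).

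The size of both differences depended on single samples. Without control 4 they were -0.22 for Mt1 and -0.34 for Mt2, and without Siglec-XII sample 2 that of Mt1 was -0.24. Without control 1 they were -0.54 for Mt1 (limma unadjusted P = 0.02) and -0.88 for Mt2 (limma unadjusted P = 0.00873), where 7.67% of the genes tested were lower at that threshold. With limma array weights, which give less weight to samples that fit less well, they were -0.74 and -0.97, where 10.8% of all genes were lower. With any 1 sample left out Mt1 ran from -0.54 to -0.22 and Mt2 from -0.88 to -0.34. Neither gene passed after adjustment under any alternative tried, and over all of them the limma adjusted p ran from 0.196 to 0.99 for Mt1 and from 0.201 to 0.99 for Mt2. Control 1 was also the sample with the most squamous RNA, and 6 of the 10 genes were lowest in it among the controls and 2 highest. Its part in these differences was not tested.

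Mt1 and Mt2 rose and fell together from sample to sample. They lie side by side on the forward strand of chromosome 8, Mt2 at 94172664 to 94173568 and Mt1 at 94179082 to 94180327 (GRCm38, GENCODE M21), 5514 bases apart. Over the 8 samples Pearson's r was 0.98 (permutation p = 0.000347, adjusted over 6 pairs 0.00208) and Spearman's rho 0.90 (permutation p = 0.00456, adjusted 0.0274). Without control 4 and Siglec-XII sample 2, the samples farthest from the median of Mt1, r was 0.995 (permutation p = 0.00278). It was 0.97 after the group means were subtracted and 0.91 after median centring, so the relation held within groups and apart from shifts common to all genes. Mt2 moved more than Mt1: the highest sample exceeded the lowest 3.08-fold in TPM for Mt2 and 2.18-fold for Mt1.

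**Figure D3:**
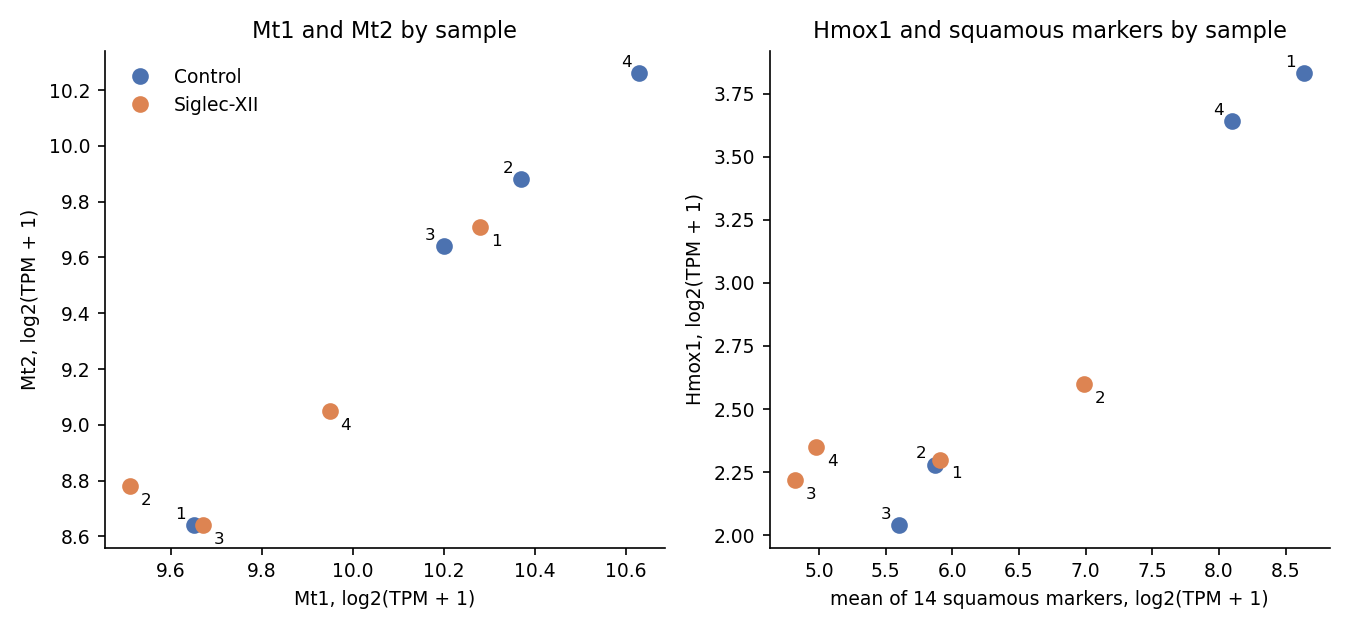
Left, Mt2 against Mt1, both in log2(TPM + 1); right, Hmox1 in log2(TPM + 1) against the mean log2(TPM + 1) of 14 squamous markers. Each point is a Control (blue) or Siglec-XII (orange) sample with its number. Mt1 and Mt2 follow 1 line (r = 0.98) on which control 1 sits beside Siglec-XII samples 2 and 3, and on the right controls 1 and 4 stand apart, with Hmox1 at 3.83 and 3.64.

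The ratio of Mt1 to Mt2 within a sample did not separate the groups either. Controls had a log2 ratio of 0.60 ± 0.28 and Siglec-XII samples one of 0.81 ± 0.20 (SD, n = 4), a difference of 0.21 (two-sided exact permutation p = 0.257, adjusted over 4 ratios 0.943). The design cannot give a permutation p below 0.0286. The genes whose pattern over the samples was most like that of Mt1 were Mt2, Gm36961 (r = 0.97) and Ddb2 (r = 0.94), and 0.0836% of the genes tested reached an r of 0.9 with it. For Mt2 the same genes led, with r of 0.98, 0.96 and 0.96.

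The promoters of this pair are shown because the genes moved together and because metal-induced transcription of metallothioneins runs through a short element, the metal response element, whose core is TGCACNC or TGCGCNC and to which Mtf1 binds. Each sequence runs 5′ to 3′ from 250 bases before the RefSeq start to 20 bases after it, on the forward strand of GRCm38.p6, with cores on either strand in capitals. The windows are chr8:94178839-94179108 for Mt1 and chr8:94172368-94172637 for Mt2.
Mt1: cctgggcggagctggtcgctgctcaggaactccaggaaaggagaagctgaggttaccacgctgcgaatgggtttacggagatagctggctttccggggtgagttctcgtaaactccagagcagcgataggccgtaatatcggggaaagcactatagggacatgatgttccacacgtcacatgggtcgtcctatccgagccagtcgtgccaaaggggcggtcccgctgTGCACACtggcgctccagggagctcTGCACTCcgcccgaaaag
Mt2: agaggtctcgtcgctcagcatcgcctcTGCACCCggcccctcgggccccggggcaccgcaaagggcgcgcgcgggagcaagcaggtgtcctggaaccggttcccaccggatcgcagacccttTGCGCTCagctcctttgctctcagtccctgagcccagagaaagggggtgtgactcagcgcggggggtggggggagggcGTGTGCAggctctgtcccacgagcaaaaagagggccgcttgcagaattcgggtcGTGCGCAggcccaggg

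The Mt1 window held 2 cores and the Mt2 window 4, none of them overlapping. Of the 32851 promoter windows of this length in the RefSeq table, 23.2% held at least 1 core, 5.96% at least 2 and 0.365% at least 4. Both cores of Mt1 read forward, starting at -23 and at 3 counted from the RefSeq start. In Mt2 the cores starting at -223 and -128 read forward and those at -50 and 5 read on the other strand. The RefSeq and GENCODE starts differ by 7 bases for Mt1 and by 46 for Mt2. Both are annotated starts, and where transcription began in these samples was not measured. Sequence outside the windows was not searched, so the counts need not cover every core of either promoter. Of the other genes, Fth1, Ftl1 and Tfrc had windows in the table: those of Fth1 and Ftl1 held 0 cores, and 1 of the Tfrc windows held 2 that overlap, a palindrome read on both strands.

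Mt3 and Mt4, the other metallothioneins, and Mtf1 showed no difference that passed. Mt4, known from stratified squamous epithelium, stood at 6.74 ± 0.71 log2(TPM + 1) in the controls against 6.76 ± 0.46 in the Siglec-XII group, and Mt3 at 2.38 ± 0.26 and 2.08 ± 0.39. Mtf1 stood at 3.28 ± 0.05 and 3.21 ± 0.27 (SD, n = 4).

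Slc39a4, also called Zip4, is the zinc importer of the enterocyte's apical membrane. It stood at 5.00, 5.91, 6.02 and 5.72 log2(TPM + 1) in controls and at 5.84, 6.03, 5.77 and 5.49 in Siglec-XII samples. Control 1 was the lowest sample of all, and the other 7 lay between 5.49 and 6.03. Siglec-XII minus Control came to 0.12 log2 units (SE 0.221, 95% interval -0.38 to 0.62, limma adjusted p = 0.799), and without control 1 it was -0.10. With Mt1 it gave no correlation that passed (r = 0.27, permutation p = 0.546, and rho = -0.02, permutation p = 0.977, both over 8 samples; r = 0.72 and permutation p = 0.0986 without control 4 and Siglec-XII sample 2). The genes most like it were Fbxl8, Tmtc2 and Lypd8 (r = 0.98 each).

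Ferritin mRNA was the steadiest of the set. Fth1, the heavy chain with ferroxidase activity, stood at 11.90, 11.81, 11.65 and 11.75 log2(TPM + 1) in controls and at 11.63, 11.84, 11.63 and 11.82 in Siglec-XII samples. Ftl1, the light chain, stood at 10.98, 10.99, 10.68 and 10.64 in controls and at 10.67, 10.83, 10.70 and 10.81 in Siglec-XII samples. Within both genes the Siglec-XII samples fell inside or next to the control range. The log2 difference was -0.05 for Fth1 (95% interval -0.26 to 0.17, limma adjusted p = 0.812) and -0.07 for Ftl1 (95% interval -0.31 to 0.17, limma adjusted p = 0.753). These were the narrowest intervals of the 10, and only 6.39% of all genes tested had a smaller SD over the 8 samples than Fth1 and 14.7% a smaller SD than Ftl1.

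The log2 ratio of Fth1 to Ftl1 ran from 0.82 in control 2 to 1.11 in control 4, a span no narrower than that of Fth1 alone. Controls had a log2 ratio of Fth1 to Ftl1 of 0.96 ± 0.12 and Siglec-XII samples one of 0.98 ± 0.04 (SD, n = 4), a difference of 0.02 (two-sided exact permutation p = 0.743, adjusted 0.943). Over the 8 samples the chains correlated with r = 0.80 (permutation p = 0.0232, adjusted over 6 pairs 0.0695) and rho = 0.69 (permutation p = 0.0694), and without Siglec-XII samples 1 and 3 with r = 0.77 (permutation p = 0.0667). Ftl1 shares 57.7% of its windows of 31 bases with other annotated transcripts. For 4 other genes, at least 50% of the windows of a transcript of their own are shared with Ftl1. These 4 genes summed to a mean of 3.31 TPM, so a part of the level of Ftl1 may be split with near-identical copies. Fth1 shares 3.24%, and the other 8 genes at most 0.668% of theirs. The genes most like Fth1 over the samples were Galnt11, Upp1 and Gng5 (r = 0.95, 0.94 and 0.94), and B230307C23Rik and Bst2 were among those most like Ftl1 (r = 0.96 and 0.94).

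Slc40a1 encodes ferroportin, the iron exporter. It stood at 6.71, 7.17, 7.26 and 7.28 log2(TPM + 1) in controls and at 7.10, 7.41, 7.18 and 7.48 in Siglec-XII samples. Siglec-XII samples 2 and 4 were the highest of all and control 1 the lowest, and the others overlapped. Siglec-XII minus Control came to 0.19 log2 units (SE 0.147, 95% interval -0.14 to 0.52, limma adjusted p = 0.566), which stayed above 0 under every alternative, between 0.06 and 0.40. Ifngr1, Slc15a1 and Fxyd4 were most like it (r = 0.95 each).

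Heph, hephaestin, stood at 4.46, 5.07, 5.13 and 5.02 log2(TPM + 1) in controls and at 5.15, 5.16, 4.67 and 4.65 in Siglec-XII samples. Control 1 and Siglec-XII samples 3 and 4 were low and the other 5 lay close together. The log2 difference was -0.02 (SE 0.19, 95% interval -0.44 to 0.41, limma adjusted p = 0.97). Without Siglec-XII samples 3 and 4 it was 0.23. Of all genes tested 5.9% followed Heph with an r of at least 0.9, led by Map3k13 (r = 0.997), Neo1 (r = 0.996) and Dsg2 (r = 0.994), against 0.182% for Slc40a1, and the correlation of Slc40a1 with Heph over the 8 samples did not pass (r = 0.45, permutation p = 0.281).

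Slc11a2, the divalent metal transporter of the apical membrane and of endosomes, stood at 4.69, 4.87, 4.79 and 5.29 log2(TPM + 1) in controls and at 5.47, 5.22, 4.59 and 4.56 in Siglec-XII samples. The Siglec-XII samples split, with samples 1 and 2 among the highest and samples 3 and 4 the lowest of all. As a log2 difference this came to 0.05 (SE 0.229, 95% interval -0.47 to 0.57, limma adjusted p = 0.923). Without Siglec-XII samples 3 and 4, which leaves 2 against 4 samples, it was 0.43 (limma unadjusted P = 0.0497), and the adjusted p over all settings ran from 0.485 to 0.991. Ssfa2, Spns1 and Lactb2 were most like it (r = 0.97, 0.96 and 0.95).

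Tfrc, the transferrin receptor, stood at 5.84, 5.71, 5.96 and 5.98 log2(TPM + 1) in controls and at 6.44, 5.63, 5.92 and 5.51 in Siglec-XII samples. Siglec-XII sample 1 was the highest of all, and samples 2 and 4 were the lowest, so the Siglec-XII samples lay on both sides of the narrow control range. As a log2 difference this came to 0.00 (SE 0.19, 95% interval -0.43 to 0.43, limma adjusted p = 0.995), and without Siglec-XII sample 1 it was -0.19. Tfrc and Slc11a2, whose mRNAs iron regulatory proteins can stabilise, correlated with r = 0.58 over the 8 samples (permutation p = 0.124), a value that rested on control 4 and Siglec-XII sample 1, without which r was -0.19. The genes most like Tfrc were Dcdc2b, Rab40c and Gm14419 (r = 0.92, 0.91 and 0.91), and 0.038% of the genes tested reached an r of 0.9 with it.

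Neither ratio that set uptake against storage or export passed a test. Tfrc to Fth1 had a log2 ratio of -5.91 ± 0.20 in the controls against -5.86 ± 0.52 in the Siglec-XII group (two-sided exact permutation p = 0.943). That of Slc11a2 to Slc40a1 was -2.19 ± 0.23 and -2.33 ± 0.55 (two-sided exact permutation p = 0.686), with n = 4 per group for both and an adjusted p of 0.943.

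Hmox1, heme oxygenase, releases iron from heme and is induced by heme and by oxidative stress. It stood at 3.83, 2.28, 2.04 and 3.64 log2(TPM + 1) in controls and at 2.30, 2.60, 2.22 and 2.35 in Siglec-XII samples. Controls 1 and 4 stood apart from the other 6 samples, and controls 2 and 3 lay within or below the Siglec-XII range. The log2 difference was -0.58 (SE 0.395, 95% interval -1.48 to 0.31, limma adjusted p = 0.539). It was the widest interval of the 10, and 94.8% of all genes tested had a smaller SD over the 8 samples.

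The pattern of Hmox1 over the samples resembled that of the squamous markers. The mean of these 14 genes, which were chosen after the data were seen, was 8.64, 5.87, 5.60 and 8.10 log2(TPM + 1) in controls 1 to 4 and 5.91, 6.99, 4.82 and 4.98 in the Siglec-XII group. The highest 3 samples were control 1, control 4 and Siglec-XII sample 2 for both, in that order. Since controls 1 and 4 form a cluster of their own, no correlation over all samples is given for Hmox1. Without these controls the log2 difference of Hmox1 was 0.20, above 0, and without control 3 it was -0.89 (limma unadjusted P = 0.0355).

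Hemoglobin mRNA, which marks blood in the tissue, did not have the same order over the samples. The summed TPM of 7 erythroid markers was 357, 32.6, 8.84 and 49.1 in controls and 237, 91.3, 45.4 and 205 in the Siglec-XII group. Control 4, with high Hmox1, was lower in these markers than 3 of the Siglec-XII samples. Macrophages recycle heme through Hmox1. The 8 macrophage markers summed to 28 TPM in control 1, the highest, and to 17 in control 4, the next. These were also the samples with the highest Hmox1. Cd163, the hemoglobin scavenger receptor, was near 0. Such sums do not measure the number of macrophages. The part of squamous tissue, blood and macrophages in the level of Hmox1 was not tested.

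The wider set of metal-handling genes was examined in the same way. Besides these 10, 97 genes of iron, heme, zinc and copper handling and of NRF2 targets were listed, 95 had a row and 75 were tested. By limma 0 of the 75 passed at an adjusted p of 0.05, and at an unadjusted P of 0.05 1 was higher and 4 were lower, beside the 1.19% and 7.67% of all genes given above. Their median log2 difference was -0.09, and 21 of the 75 were above 0, beside 21.9% of all genes tested.

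**Figure D4:**
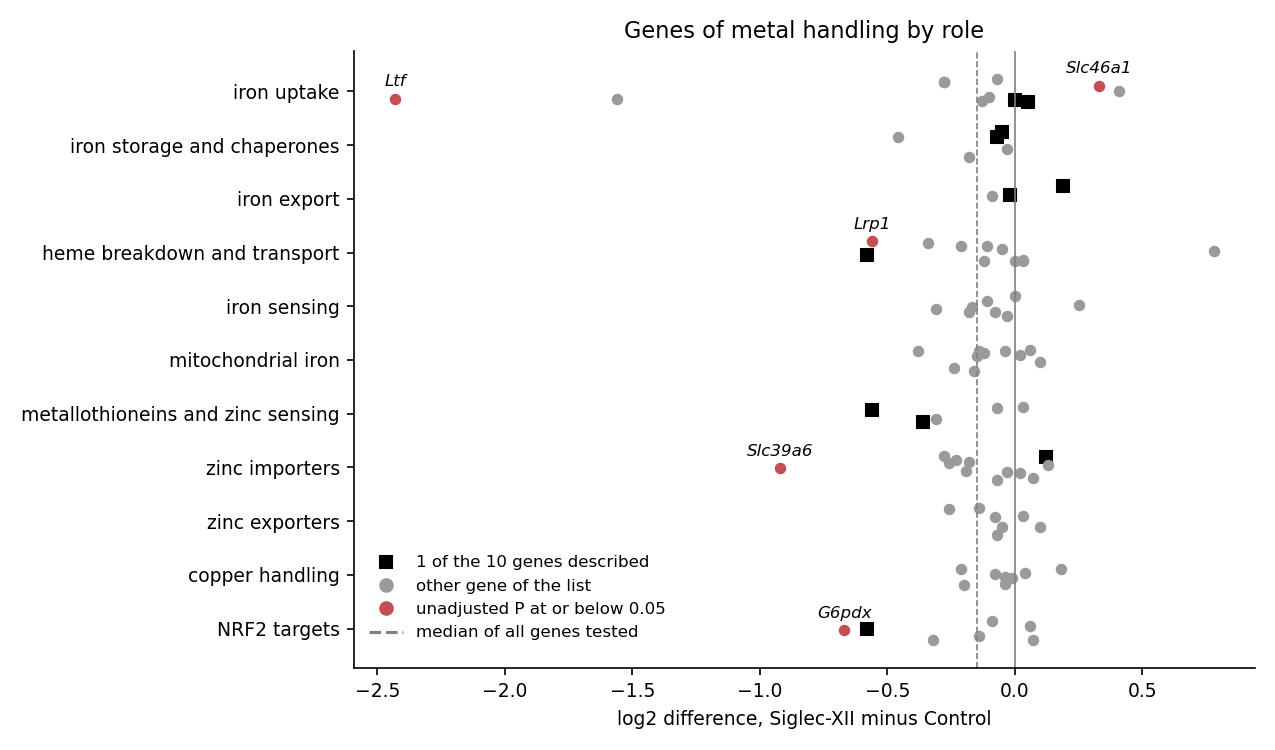
Log2 difference in level, Siglec-XII minus Control, of genes of metal handling, grouped by role. Black squares are genes of the set of 10, grey dots other tested genes, red dots genes at an unadjusted P of 0.05 or below, and the dashed line is the median of all genes tested. Most genes lie within 0.5 log2 units of 0; beyond that lie Hp above 0 and Ltf, Lcn2, Slc39a6, G6pdx, Hmox1, Lrp1 and Mt2 below 0, and the genes named in red include Slc46a1 at 0.33.

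Slc46a1 was the gene that was higher. It encodes a folate and heme transporter and stood at 5.43, 5.70, 5.92 and 5.83 log2(TPM + 1) in controls and at 5.98, 6.08, 6.04 and 6.10 in Siglec-XII samples. Every Siglec-XII sample lay above every control. It was the only 1 of the 75 whose groups did not overlap, beside 5.11% of all genes tested. The log2 difference was 0.33 (SE 0.114, limma unadjusted P = 0.0178, adjusted p = 0.515). The difference did not pass without controls 1 and 4 or without Siglec-XII samples 3 and 4.

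Ltf, lactoferrin, an iron-binding protein of neutrophils and secretions, stood at 6.82, 8.14, 3.77 and 7.97 log2(TPM + 1) in controls and at 4.40, 5.41, 3.70 and 3.48 in Siglec-XII samples. Controls 1, 2 and 4 were the highest samples and control 3 lay among the Siglec-XII samples, with a log2 difference of -2.43 (SE 0.903, limma unadjusted P = 0.0248). Of the 3 neutrophil markers tested, S100a8 and S100a9 differed by -2.61 and -2.94, with every Siglec-XII sample below every control. The other, Ly6g, differed by 0.02 (limma unadjusted P = 0.871). Squamous markers were highest in controls 1 and 4. The part of neutrophils or squamous tissue in the level of Ltf was not tested. The zinc importer Slc39a6 stood at 3.41, 2.31, 1.82 and 3.03 in controls and at 1.81, 2.18, 1.41 and 1.5 in Siglec-XII samples, a difference of -0.92 (SE 0.341, limma unadjusted P = 0.0247). Controls 1 and 4 were again the highest, as for the squamous markers, and the part of squamous RNA in this was not tested.

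Lrp1, the receptor that clears heme bound to hemopexin, differed by -0.56 (SE 0.21, limma unadjusted P = 0.0262), and G6pdx, which supplies NADPH and is an NRF2 target, by -0.67 (SE 0.275, limma unadjusted P = 0.0369). Both were lowest in Siglec-XII samples 3 and 4, the samples whose median gene was also the lowest. The summed TPM of the smooth muscle markers was low in sample 4 (306) but not in sample 3 (656, the highest of its group), and the part of these in either gene was not tested. Without controls 2 or 4, Siglec-XII sample 3 or 4, or both of the latter, between 0 and 2 of the 75 were lower, and without Siglec-XII sample 1 there were 10.

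By role, the storage list had 5 genes tested: Fth1, Ftl1, Pcbp1, Pcbp2 and Ncoa4. Pcbp1 and Pcbp2 are chaperones that deliver iron to ferritin, and Ncoa4 leads ferritin to the lysosome. Of these 5 genes 0 passed at an unadjusted P of 0.05, beside 8.87% of all genes tested. The lists by role are too short for their counts to be told apart from that share. Pcbp2 stood at 8.78 ± 0.16 log2(TPM + 1) in the controls against 8.60 ± 0.33 in the Siglec-XII group (SD, n = 4), the order in which the pairs of values below are given. The export list had 3 genes tested and 0 that passed, and Hamp2, a hepcidin paralogue, stood at 2.25 ± 0.59 and 2.16 ± 0.44. Ftmt, the mitochondrial ferritin, was at 0 in every sample, and Hephl1, Cp and Hamp were below the filter.

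Of 8 genes tested for iron sensing and of 10 for mitochondrial iron 0 passed at the same threshold, beside 8.87% of all genes tested. Id1, a target of BMP signalling, stood at 8.61 ± 0.17 and 8.86 ± 0.18 log2(TPM + 1), and Smad4 at 6.03 ± 0.22 and 5.94 ± 0.31. Neo1, whose pattern was like that of Heph, stood at 5.03 ± 0.50 and 5.03 ± 0.39. The iron-sulfur cluster genes Isca1 and Iscu stood at 6.16 ± 0.09 and 6.01 ± 0.15 and at 6.03 ± 0.08 and 6.05 ± 0.09, and the glutaredoxin Glrx5 at 5.81 ± 0.13 and 5.87 ± 0.07. In the heme list, Alas1, the first enzyme of heme synthesis, stood at 6.82 ± 0.17 and 6.47 ± 0.59, the biliverdin reductase Blvrb at 5.68 ± 0.18 and 5.68 ± 0.17, and Hmox2, the constitutive heme oxygenase, at 5.42 ± 0.11 and 5.37 ± 0.14.

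Of 12 zinc importers tested Slc39a6 alone passed at an unadjusted P of 0.05, and of 7 exporters and 8 copper genes 0 did. At that threshold 8.87% of all genes tested passed. The highest importers were Slc39a1 at 6.28 ± 0.13 and 6.29 ± 0.20 log2(TPM + 1), Slc39a5 at 6.20 ± 0.10 and 6.33 ± 0.09, and Slc39a7 at 6.19 ± 0.13 and 5.96 ± 0.43. Among exporters, Slc30a9 stood at 4.86 ± 0.11 and 4.79 ± 0.23, Slc30a5 at 4.77 ± 0.08 and 4.70 ± 0.16, and Slc30a6 at 4.12 ± 0.04 and 4.15 ± 0.23. The copper chaperones Cox17 and Atox1 stood at 8.0 ± 0.12 and 8.04 ± 0.18 and at 7.47 ± 0.13 and 7.39 ± 0.08, and Commd1 at 6.66 ± 0.05 and 6.84 ± 0.13. Among NRF2 targets, which include Hmox1, Gclm stood at 6.28 ± 0.13 and 6.14 ± 0.19, Txnrd1 at 6.35 ± 0.15 and 6.03 ± 0.37, and Srxn1 at 5.44 ± 0.10 and 5.5 ± 0.07.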

How the data were processed

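RNA-seq of distal colon from 4 Control and 4 Siglec-XII samples was used. The authors quantified reads with kallisto and deposited log2(TPM + 1) per Ensembl gene. The labels' notes give version 0.45.0 and GRCm38, whereas the methods name another version and a human reference; the identifiers are of mouse, and 98.3% are in GENCODE M21. TPM keeps no read number, so depth is unknown and no counting error is given; the number of samples limits the precision. The labels name a kit for total RNA and the methods one for mRNA. The methods' DESeq2 needs counts, which were not used here.

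Genes at a TPM of 1 or more in 4 or more samples were fitted with limma 3.58.1 (R 4.3.3; lmFit, eBayes with trend) on the deposited values, pseudocount 1, with Benjamini-Hochberg adjustment. Tested on simulated data, the fit called 171 genes, among them 164 of the 200 that had been changed and 7 that had not. Ratios were tested by exact permutation of the 70 labelings and correlations by permutation over all pairings (Python 3.11.15, scipy 1.17.1). Windows of 31 bases of GENCODE M21 transcripts were compared for shared sequence.

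The genes and lists were chosen with earlier results of these data known. Named besides the 10 were listed genes past an unadjusted P of 0.05 (up to 5 per direction), the highest 3 of each list and, for each of the 10, the 3 genes tested with the highest r (1 of these, and those of Hmox1, are not reported here); Lcn2, Hp, Mt3, Mtf1, Ncoa4, Pcbp1, Ftmt, Hephl1, Cp, Hamp and the squamous markers were added after their values were seen. Sample numbers shared by the groups did not pair the samples. Alternatives were other filters, a pseudocount of 0.1, other scalings and weights, no moderation, a replicate block, ferritin copies summed and samples left out.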

Additional observations from a re-analysis of the deposited data

Results flagged for a closer look

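Of 38 groups of 4 samples examined, 1 held a sample far from the others, where chance alone gives about 1.9. It was Heph in controls: control 1 stood at 4.46 log2(TPM + 1), and the other controls between 5.02 and 5.13, so the gap took 0.832 of the range, just past Dixon's 95% limit for 4 samples. Control 1 also held the most squamous RNA, 2.66% of TPM, and its part in this value was not tested.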

How the results depend on the processing

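At an adjusted p of 0.05 the count of the 10 genes stayed at 0 under all 20 alternatives, and of the refitted differences 150 kept their sign and side of the unadjusted threshold, 8 became stronger and 24 turned. The count at an unadjusted P of 0.05 was 2 with array weights (Mt1 and Mt2), 1 without Siglec-XII samples 3 and 4 (Slc11a2), 1 without controls 1 and 4 (Mt2) and 0 to 2 with 1 sample left out. Of the 75 listed genes, those higher were 4 with no filter, 4 with array weights, 9 with median centring, 5 with quantile normalization, 2 with no moderation, 0 without Siglec-XII samples 3 and 4 and 0 without controls 1 and 4; those lower were 2 with centring, 0 with no moderation and 0 without Siglec-XII samples 3 and 4. With 1 sample left out they were 1 to 3 higher and 0 to 10 lower.

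Differences turned for Heph to 0.13 (quantile), 0.20 (centring), 0.09 (array weights) and 0.23 (without Siglec-XII samples 3 and 4); for Fth1 to 0.17 (centring) and 0.05 (weights); for Ftl1 to 0.14 (centring) and 0.02 (weights); for Tfrc to -0.13 (weights); and without controls 1 and 4 for Slc39a4 to -0.18 and Hmox1 to 0.20. With 1 sample left out, Mt1 ran from -0.54 to -0.22, Mt2 from -0.88 to -0.34, Heph from -0.17 to 0.07, Slc39a4 from -0.10 to 0.24, Slc11a2 from -0.12 to 0.18 and Tfrc from -0.19 to 0.12. The ratio of Slc11a2 to Slc40a1 was 0.28 without Siglec-XII samples 3 and 4 and -0.37 to 0.06 with 1 left out, that of Fth1 to Ftl1 -0.02 to 0.07 and that of Tfrc to Fth1 -0.17 to 0.20. Without the 2 farthest samples r was 0.77 for Fth1 and Ftl1, -0.19 for Slc11a2 and Tfrc and 0.37 for Slc40a1 and Hmox1. Leaving out 1 control exchanged 0 to 2 ranks. The cause was not tested. Same-numbered samples correlated in their deviations between -0.20 and 0.10, and the fit with the replicate block gave 0 of the 10 at an unadjusted P of 0.05 and 5 lower listed genes. Summing rows of 1 symbol was not run, since each gene has 1 row. The alternative without controls 1 and 4 and the sum with near copies of Ftl1 were chosen after the data were seen.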
